A study of Mus musculus with 15 samples.

Results

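The 7 genes Synpr, Nov, Rab3b, Hpcal1, Nfib, Dapk2 and Slc24a2 were followed across the excitatory neurons of the mouse prefrontal cortex (PFC), of 26145 genes listed for the series. They were chosen by their measured difference between cocaine and saline at 48 h of withdrawal in a deep-layer excitatory subtype, so that every 48 h value below describes the choice and carries no test. All 7 members were found by symbol, each at 1 identifier. Single cells had been sequenced in 15 droplet libraries, 12 of adult and 3 of juvenile male C57BL/6N mice. The adult mice, 8 to 10 weeks of age by the labels, had gone through intravenous self-administration of cocaine or of saline in place of cocaine. They formed 6 groups of 2 libraries: cocaine and saline at the end of 15 days of maintenance, at 48 h and at 15 days (15 d) of withdrawal. The study operated on adult mice before self-administration, so whether the labels give the age at the start or at collection is not known. The juvenile mice were at postnatal day 21 (P21), 3 weeks of age. Each adult library pools 2 mice. The study's methods give 4 mice for P21 and pools of 2 mice, which makes 2 pools for 3 P21 libraries, so that some P21 libraries may share mice, and which ones is not stated. The tissue tag of the labels reads NAc (nucleus accumbens), whereas titles and source names read PFC. The authors' excitatory class holds 14452 adult and 5688 P21 cells, of which 20091 lie in 26 deposited clusters, Exc_1 to Exc_26.

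The retained cells of a library held between 8375172 and 42892922 unique molecular identifiers (UMIs), each standing for 1 captured mRNA molecule. A library had 321 to 2623 excitatory neurons, fewest at maintenance and most at 15 d. Levels are counts per 1e6 UMIs of a library and cell group (CPM), summed over cells and without mitochondrial and ribosomal protein genes. Because UMIs are counted at the 3′ end, a level in CPM was compared between samples and clusters and not between genes. Retained cells of different libraries shared at most 1.09% of their barcodes. In summed cells, fewer positive cells and less mRNA per cell cannot be told apart.

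The 7 genes encode proteins of different kinds, some of them of synaptic vesicles or of calcium handling. Synpr encodes synaptoporin, a membrane protein of synaptic vesicles related to synaptophysin. Rab3b encodes a small GTPase of the Rab3 family, which sits on synaptic vesicles and takes part in regulated exocytosis. Hpcal1 encodes a neuronal calcium sensor that binds calcium and membranes, and Slc24a2 encodes a sodium/calcium exchanger that depends on potassium and moves calcium out of the cell. Dapk2 is a kinase regulated by calcium and calmodulin. Nov (also Ccn3) is a secreted matricellular protein of the CCN family, and Nfib is a transcription factor of the nuclear factor I (NFI) family with known roles in forebrain development. Cortical excitatory neurons use glutamate and differ by layer and by projection target, and deep-layer neurons include those that project out of the cortex.

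All members are protein-coding genes in the annotation of NCBIM37 (mm9), the build the authors aligned to. Synpr lies on chromosome 14 from 14117294 to 14447973 on the plus strand, Nov on chromosome 15 from 54577257 to 54585594 (plus), and Hpcal1 on chromosome 12 from 17697620 to 17798732 (plus). Dapk2 lies on chromosome 9 from 66006030 to 66120049 (plus). Rab3b, Nfib and Slc24a2 share chromosome 4, with Rab3b from 108551668 to 108615929 (plus), Nfib from 81936077 to 82351654 (minus) and Slc24a2 from 86629028 to 86876381 (minus). Their exons cover between 1561 bases for Hpcal1 and 14957 bases for Nfib. The 3′ end of Rab3b overlaps 8030443G20Rik on the other strand, which averaged 0.00713 CPM in adult excitatory neurons. Gm11266 lies within Nfib on the other strand, away from its 3′ end, and averaged 1.44 CPM.

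RefSeq promoters (GRCm38.p6, 250 bases before to 50 bases after a start site) were found for 5 of the 7 members, as 7 entries. No entry was found for Nov and Nfib. They are shown for Synpr, Rab3b and Hpcal1, which were higher after cocaine at 48 h, because Nfib, itself a member, encodes a protein that binds the NFI motif. Capitals mark the NFI motif TTGGC and the core TGACG of the cAMP response element, on either strand. The windows lie at chr14:13284530-13284829 (plus), chr4:108878820-108879119 (plus) and chr12:17690559-17690858 (plus).
Synpr: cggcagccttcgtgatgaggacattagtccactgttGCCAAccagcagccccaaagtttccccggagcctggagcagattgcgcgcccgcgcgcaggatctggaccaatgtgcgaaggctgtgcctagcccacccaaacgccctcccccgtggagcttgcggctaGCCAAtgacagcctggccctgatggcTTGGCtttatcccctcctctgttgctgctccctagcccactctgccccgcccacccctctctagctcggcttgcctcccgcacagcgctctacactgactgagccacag
Rab3b: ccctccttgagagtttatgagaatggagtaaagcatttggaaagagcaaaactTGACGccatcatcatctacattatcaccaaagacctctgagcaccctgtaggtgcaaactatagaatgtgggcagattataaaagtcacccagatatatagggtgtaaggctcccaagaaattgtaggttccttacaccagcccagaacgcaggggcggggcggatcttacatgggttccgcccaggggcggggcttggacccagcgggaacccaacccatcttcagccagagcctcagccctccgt
Hpcal1: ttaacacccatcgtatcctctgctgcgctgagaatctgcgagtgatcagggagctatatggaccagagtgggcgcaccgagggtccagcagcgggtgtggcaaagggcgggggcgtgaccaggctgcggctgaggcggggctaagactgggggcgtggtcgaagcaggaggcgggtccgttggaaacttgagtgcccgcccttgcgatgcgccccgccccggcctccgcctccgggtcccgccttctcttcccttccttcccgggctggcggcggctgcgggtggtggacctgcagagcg
The Synpr window shown held 3 NFI motifs and no TGACG, and the other Synpr entry, at chr14:13453708-13454007 (plus) and not shown, held 1 NFI motif and no TGACG. Of the windows of the other genes shown, that of Rab3b held 1 TGACG and no NFI motif, and that of Hpcal1 held neither. Among entries not shown, that of Slc24a2 at chr4:87227914-87228213 (minus) held 1 TGACG, although Slc24a2 was lower after cocaine at 48 h. The other Slc24a2 entry and that of Dapk2 held no TGACG, and the NFI motif was in no entry of these genes. The NFI motif occurred in 46.7% and TGACG in 20.8% of the 32851 promoters of the table. The full NFI palindrome, which pairs both orientations of TTGGC and so overlaps that motif, and the AP-1 motif TGANTCA, present in 0.0365% and 7.81% of all promoters, were in none of the 7 entries. These are matches of letters and not sites of binding.

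The deposited cluster in which the 48 h differences of all members met was Exc_25. This cluster was singled out after its values were seen. The rule names no deposited cluster, so whether Exc_25 is the subtype in which the genes were chosen is not known. Of 19 clusters with at least 10 cells in each of the 4 libraries of 48 h, Exc_25 was the one in which the cocaine and saline libraries lay apart for 7 of 7 members, followed by Exc_16 with 6 members. The share of all genes with at least 20 UMIs in Exc_25 whose cocaine libraries both lay above the saline libraries was 16.9%, and 17.4% lay below. Dapk2 had 10 UMIs there in all, so that 6 of the 7 members reached the 20 UMIs of this background. The genes were chosen for such differences, and nothing is read from these counts. Exc_25 held 16 to 242 cells in an adult library.

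Exc_25 was high in markers of excitatory neurons and in some markers of layer 5, and low in those of the upper layers. Slc17a7, the vesicular glutamate transporter of cortical excitatory neurons, averaged 633.3 CPM in saline libraries of maintenance and 15 d, the highest of the 26 clusters. Etv1, a marker of layer 5, averaged 281.8 CPM and ranked 3 of 26, and Fezf2, a factor of layer 5 projection neurons, averaged 49.8 CPM and ranked 6 of 26. The upper-layer markers Cux2, Cux1, Calb1 and Lpl together came to 8.68 CPM, and were at 582 CPM in Exc_3. Not all layer 5 markers were present, with Pou3f1 at 0.205 CPM, Tshz2 at 1.24 CPM and Bcl6 at 0.501 CPM, and Bcl11b at 13.2 CPM ranked 10 of 26. Of the layer 6 markers, Foxp1 was at 255.7 CPM (11 of 26), Nnat at 74.5 CPM (9), Tle4 at 9.49 CPM (15), Foxp2 at 5.62 CPM (7), Osr1 at 0.264 CPM and Syt6 at 0 CPM. Their sum did not set Exc_25 apart, at 345.6 CPM against 333.7 CPM in Exc_8, a cluster with 273.5 CPM of upper-layer markers. The inhibitory markers Gad1 and Gad2 were at most 2.32 and 2.46 CPM in any adult library, and the oligodendrocyte markers Aspa and Mog at most 2.08 and 4.50 CPM. The astrocyte marker Gja1 averaged 3.73 CPM, the highest of the 26 clusters, and reached 9.45 CPM in an adult library. C1qa of microglia reached 7.37 CPM and Flt1 of endothelial cells 6.24 CPM.

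In Exc_25 at 48 h, the 5 genes for vesicle, calcium sensor, secreted and transcription factor proteins were higher in cocaine libraries, and Slc24a2 and Dapk2 were lower. Synpr was at 11.9 and 10.7 CPM in the saline libraries and at 56.4 and 39.4 CPM in the cocaine libraries, a ratio of means of 4.25. Rab3b was at 8.49 and 19.5 CPM in saline and at 42.0 and 52.8 CPM in cocaine, a ratio of 3.38. Both cocaine libraries thus lay above both saline libraries for each of these genes of synaptic vesicles. For Rab3b the saline values rest on 5 and 22 UMIs.

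Nfib was at 37.3 and 78.1 CPM in saline and at 153.8 and 125.2 CPM in cocaine in these cells, a ratio of 2.42. Nov was at 30.6 and 22.2 CPM in saline and at 60.5 and 56.8 CPM in cocaine, a ratio of 2.22. Hpcal1, the most evenly measured of the group, was at 105.2 and 114.5 CPM in saline and at 201.9 and 200.0 CPM in cocaine, a ratio of 1.83. The Hpcal1 libraries of a group lay close together, whereas the saline libraries of Nfib differed from each other by about as much as the nearer cocaine library differed from them. Genes and cluster were picked for such differences, so nothing is read from their size beside the spread.

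Slc24a2 was at 252.9 and 252.1 CPM in saline and at 166.1 and 134.5 CPM in cocaine at 48 h in Exc_25, a ratio of 0.595. Dapk2 was barely detected there, with 3 and 6 UMIs in the saline libraries and 0 and 1 UMI in the cocaine libraries. No fold is given for Dapk2 since its cocaine libraries held fewer than 3 UMIs. Without any 1 of the 4 libraries the log2 ratio was between 1.81 and 2.32 for Synpr, 0.811 and 0.934 for Hpcal1 and -0.909 and -0.605 for Slc24a2. It ran from 1.28 to 2.48 for Rab3b, 0.941 to 1.40 for Nov and 0.836 to 1.90 for Nfib. For Rab3b and Nfib the lowest value came without the first saline library and the highest without the second, and for Nov the reverse.

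Some measures moved with treatment in these same libraries. Snap25, a neuronal marker, was at 5041 to 5779 CPM in the 48 h saline libraries of Exc_25 and at 3913 to 4212 CPM in the cocaine libraries. In the other adult groups it was at 3623 to 4685 CPM, so that the 48 h saline libraries were the ones that stood apart. The 48 h saline values of Nov, 22.2 and 30.6 CPM, lay below the 43.4 to 113.4 CPM of the other saline libraries. That range holds the 48 h cocaine values of Nov only through the first saline library of maintenance (113.4 CPM), the others being at 43.4 to 48.7 CPM. The 48 h saline values of Hpcal1, 105.2 and 114.5 CPM, lay below the 118.5 to 222.2 CPM of the other saline libraries of Exc_25. Its cocaine values were inside that range only through the second saline library of 15 d (222.2 CPM). Rab3b was apart on both sides, since its saline values lay below the 23.5 to 31.5 CPM of the other saline libraries and its cocaine values above. Slc24a2 was also apart on both sides, with saline values above the 183.3 to 248.9 CPM of the other saline libraries and cocaine values below. For Synpr (0 to 37.2 CPM in the other saline libraries) the cocaine values were the ones outside that range. For Nfib (70.7 to 118.9 CPM) both cocaine values and the lower saline value were outside it. The median number of UMIs per Exc_25 cell was 21110 and 22470 in saline and 21720 and 28440 in cocaine. Synpr UMIs were found in 6.45% and 5.66% of the saline cells and in 25% and 27.8% of the cocaine cells of Exc_25, against 0.446% to 2.06% of endothelial cells, which had medians of 3966 to 5095 UMIs. At a common depth of 2000 UMIs drawn from each cell, these were 3.23% and 1.89% in saline and 1.92% and 5.56% in cocaine, so that no order can be read at that depth. Synpr in microglia, which do not use synaptic vesicles, was at 12.5 and 4.94 CPM in saline and 6.13 and 15.2 CPM in cocaine at 48 h, with overlap. In astrocytes, however, Synpr was at 7.14 and 0 CPM in saline and 9.99 and 47.7 CPM in cocaine (1 and 0 against 4 and 24 UMIs). It was also higher in both cocaine libraries in precursors of oligodendrocytes, at 6.62 and 8.34 against 28.1 and 12.8 CPM, and in newly formed oligodendrocytes, at 17.0 and 8.15 against 30.1 and 20.1 CPM, each on 8 or fewer UMIs a library. Synpr was thus apart between treatments in some glial classes, on few UMIs, and overlapped in others. The share of all genes apart in these classes was not determined. The summed markers of inhibitory neurons, astrocytes and mature oligodendrocytes were each at most 3.48 CPM in the 48 h libraries of Exc_25, and those of microglia at most 6.79 CPM. The part of Snap25, of depth and of Synpr UMIs found in glia in the 48 h values was not tested.

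**Figure D1:**
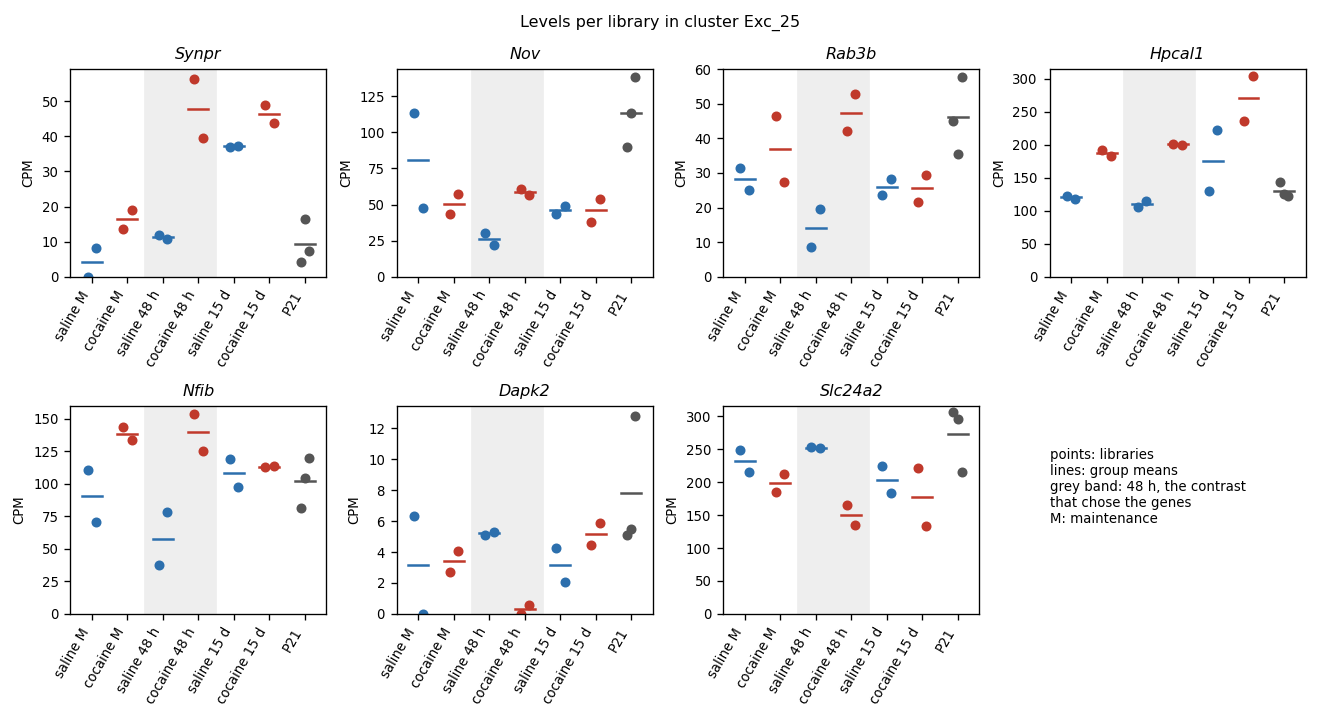
Levels in CPM (vertical axis) of each member in cluster Exc_25 by group (horizontal axis), with a point for every library and a line at the group mean. Within the grey 48 h band the cocaine points of Synpr, Nov, Rab3b, Hpcal1 and Nfib lie above the saline points, and those of Slc24a2 and Dapk2 lie below.

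Over all excitatory neurons the 48 h picture was narrower. Hpcal1 was at 51.3 and 53.9 CPM in saline and at 104.3 and 109.0 CPM in cocaine, and Rab3b at 19.3 and 29.2 CPM against 43.2 and 45.4 CPM. Nfib was at 91.5 and 93.4 CPM in saline and at 112.6 and 125.1 CPM in cocaine, and Slc24a2 at 160.5 and 118.8 CPM against 85.0 and 93.5 CPM. Both cocaine libraries of these 4 genes lay apart from both saline libraries in the class as a whole. The 48 h saline values of Hpcal1 lay below the 55.9 to 139.7 CPM of the other saline libraries. That range holds its cocaine values only through the second saline library of 15 d (139.7 CPM). For Nfib (82.6 to 125.1 CPM) the 48 h saline values were inside the range. The cocaine values of Nfib were inside only through a saline library of 15 d at 125.1 CPM. The cocaine values of Rab3b lay above the 20.8 to 37.4 CPM of the other saline libraries and those of Slc24a2 below their 108.4 to 172.8 CPM. Snap25 was at 4741 to 5241 CPM in the 48 h saline and 3846 to 4184 CPM in the cocaine libraries of the class, and its part in these values was not tested. Synpr, at 252.0 and 252.2 CPM in saline and 292.0 and 238.2 CPM in cocaine, overlapped, as did Nov and Dapk2. In all genes with at least 20 UMIs, 19.5% lay above and 13.7% below in the same sense.

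Cocaine libraries held other proportions of clusters, and an equal number of cells of each cluster was therefore drawn from every adult library (266 cells in 24 clusters). At that equal mix the 48 h log2 ratio of Hpcal1 was 0.53 instead of 1.02, that of Rab3b 0.53 instead of 0.87, and that of Slc24a2 -0.39 instead of -0.65. Nfib was at 0.41 instead of 0.36. In this random draw of cells the libraries of Hpcal1, Rab3b, Nfib and Slc24a2 were also apart. Since the 48 h contrast chose the genes, nothing is read from this.

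The clusters shared the direction for some genes and not for others at 48 h. Hpcal1 was higher in both cocaine libraries in 11 of 18 clusters with at least 20 UMIs and lower in 1, and Nfib was higher in 11 of 19, beside 17.8% of all pairs of a gene and a cluster. Rab3b was higher in 5 of 9 clusters, and Slc24a2 was lower in 8 of 17 and higher in 1, beside 15.3% of all pairs. Synpr was apart upwards in 6 and downwards in 2 of 16 clusters, with a median log2 ratio of 0.155 where Exc_25 had 2.09. Nov was apart upwards in 5 of 19. Dapk2 reached 20 UMIs in 2 clusters and was apart upwards in 1 and downwards in 0 of them, unlike in Exc_25. In Exc_10 it was at 0 and 32.98 CPM in saline and at 33.17 and 37.34 CPM in cocaine. Clusters of 1 library are not independent of each other, and this contrast chose the genes.

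**Figure D2:**
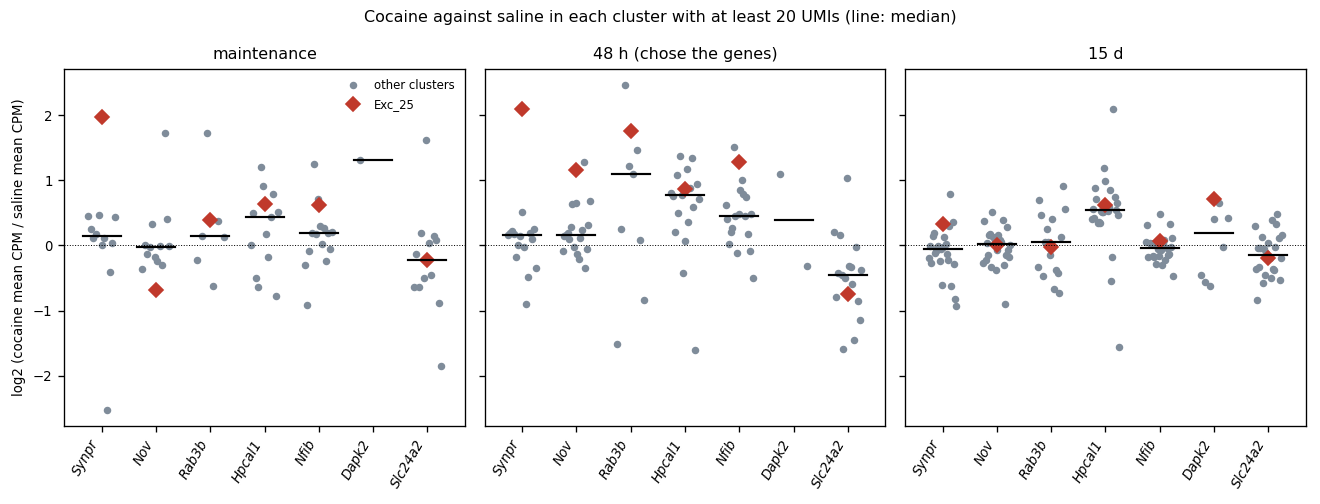
Log2 ratio of the cocaine to the saline mean CPM (vertical axis) for each member (horizontal axis) in each cluster with at least 20 UMIs, at maintenance, 48 h and 15 d, with Exc_25 as a diamond and the median over clusters as a line. At 48 h Synpr in Exc_25 (2.09) stands above the other clusters, and at 15 d the median is above zero for Hpcal1 (0.536) and near zero for Synpr, Nov, Rab3b and Nfib.

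Outside excitatory neurons, some members were also apart at 48 h. The share of all genes apart in these other classes was not determined, so nothing is read from the list. In inhibitory neurons, Synpr was at 1001 and 778.3 CPM in saline and 555.1 and 995.7 CPM in cocaine, and Rab3b, Nfib, Nov, Hpcal1 and Dapk2 overlapped likewise. Slc24a2 in inhibitory neurons was at 201.2 and 265.4 CPM in saline and 157.6 and 158.3 CPM in cocaine, again with the cocaine libraries lower. In endothelial cells Hpcal1 was at 79.8 and 68.4 CPM in saline and at 101.2 and 94.2 CPM in cocaine. Hpcal1 was higher in both cocaine libraries in precursors as well, at 13.3 and 5.56 against 28.1 and 17.7 CPM on 19 UMIs in all, and Nfib was lower in astrocytes, at 342.5 and 321.1 against 307.2 and 234.7 CPM. Rab3b was apart upwards in astrocytes and newly formed oligodendrocytes, on 2 and 5 UMIs, and downwards in precursors, on 6 UMIs. On 8 or fewer UMIs in all, Slc24a2 was apart upwards in newly formed oligodendrocytes and downwards in precursors, Nov upwards in precursors and Nfib downwards in microglia. Mature oligodendrocytes, which use Slc24a2 and Dapk2 as well, overlapped for all 7 members.

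At maintenance, a contrast that took no part in the choice, no member was called between cocaine and saline in all excitatory neurons. The edgeR quasi-likelihood test was fitted on all 12 adult libraries and 13175 genes. A gene was called where the Benjamini-Hochberg adjusted p was below 0.05 and the change exceeded 1.5-fold. The background was 0% of genes called, with 871 genes at an unadjusted p below 0.05 and 2 genes called by DESeq2, which called no member. Rab3b, at 20.8 and 21.9 CPM in saline and 24.3 and 41.1 CPM in cocaine, had a log2 change of 0.59 ± 0.24 (SE) with an edgeR adjusted p of 0.738. This value was 0.12 without the second cocaine library, 0.95 without the first and 0.20 at the equal mix of clusters. Nfib, at 104.9 and 82.6 CPM in saline and 115.3 and 116.2 CPM in cocaine, had a log2 change of 0.29 ± 0.11 (SE, edgeR adjusted p = 0.738), and 0.17 without the second saline library or 0.16 at the equal mix. These were the 2 members with an unadjusted p below 0.05. Hpcal1 lay at 55.9 and 71.2 CPM in saline and 84.3 and 86.6 CPM in cocaine, without overlap, at a log2 change of 0.38 ± 0.25 (SE, edgeR adjusted p = 0.820), which was 0.19 without the first and 0.64 without the second saline library.

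In the clusters at maintenance, 0 of 78 tests of a member were called by edgeR and none by DESeq2, with 10 at an unadjusted p below 0.05, beside 0.00647% of all pairs of a gene and a cluster. Hpcal1 was higher in both cocaine libraries in 6 of 13 clusters and lower in none, beside 17.1% of all pairs above and 14.8% below. Synpr was higher in 5 of 12 and lower in 1, and Slc24a2 was lower in 5 of 13 and higher in 1. In Exc_25, Hpcal1 was at 122.9 and 118.5 CPM in saline and 192.3 and 182.6 CPM in cocaine, and Nfib at 110.3 and 70.7 CPM against 143.2 and 133.5 CPM. Synpr stood at 0 and 4 UMIs in saline and 10 and 14 UMIs in cocaine. Dapk2 did not pass the filter on low counts in Exc_25, whereas all 7 members passed it in the whole class. Of the 6 members tested in Exc_25, where 0% of genes were called, none was called by edgeR (smallest adjusted p = 0.999) or by DESeq2, and Synpr, Hpcal1 and Nfib had an unadjusted p below 0.05. Nov pointed the other way in Exc_25, at 113.4 and 47.8 CPM in saline and 43.6 and 57.2 CPM in cocaine.

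At 15 d of withdrawal, Hpcal1 was the member with the largest change in all excitatory neurons. Its 4 libraries stood at 75.5 and 139.7 CPM in saline and at 146.0 and 143.3 CPM in cocaine. The second saline library lay just below the cocaine libraries and far from the first, so that the difference rested mostly on the first. The log2 change of Hpcal1 was 0.48 ± 0.23 (SE, edgeR adjusted p = 0.821), and 0 of 7 members were called, beside 0.713% of genes (94 of 13175). No member had an unadjusted p below 0.05 and none was called by DESeq2. Without the second saline library the log2 change of Hpcal1 was 0.99 ± 0.16 (SE, edgeR adjusted p = 0.00127), and the number of genes called rose to 387, whereas without the first saline library or without the first cocaine library 0 genes were called.

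Synpr, Nov, Rab3b, Nfib and Slc24a2 were close to even at 15 d. Synpr was at 225.4 and 252.8 CPM in saline and 253.2 and 216.4 CPM in cocaine, a log2 change of 0.02 ± 0.23 (SE). Rab3b was at 35.2 and 37.4 CPM in saline and 29.7 and 33.4 CPM in cocaine, a log2 change of -0.15 ± 0.21 (SE). Nfib and Slc24a2 had log2 changes of -0.06 ± 0.11 and -0.03 ± 0.24 (SE). Dapk2, at 4.35 to 5.24 CPM in the 4 libraries, was the member with the fewest UMIs.

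In the clusters at 15 d, Hpcal1 stood out from the other members. It was higher in both cocaine libraries in 18 of 26 clusters, and lower in both in 1, Exc_26, beside 16.1% of all pairs above and 19.9% below. As at maintenance and 48 h, clusters of 1 library are not independent, so such a count can repeat a single difference between libraries. By edgeR 3 of 132 tests of a member were called (2.27%, beside 1.22% of all pairs), each of them a rise of Hpcal1 by log2 0.94 in Exc_4 (adjusted p = 0.0227), 0.66 in Exc_14 (0.0193) and 0.89 in Exc_17 (0.0374). DESeq2 called 0 of these tests. Each of the 3 calls was lost without the first cocaine library or without the first saline library, at log2 changes of 0.36 to 0.95, and those in Exc_4 and Exc_14 also without the second cocaine library. In Exc_14, a cluster with high Hpcal1, the libraries stood at 201.2 and 323.2 CPM in saline and 399.8 and 392.3 CPM in cocaine. Without the second saline library of 15 d, 13 tests of members were called, and without the first cocaine library none.

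Exc_25 at 15 d showed a difference for Hpcal1 that missed the threshold. Hpcal1 was at 129.8 and 222.2 CPM in saline and 236.0 and 305.0 CPM in cocaine, a log2 change of 0.67 ± 0.18 (SE, edgeR adjusted p = 0.0534, with 1.53% of genes called). Without the second saline library it was 1.12. That library, at 222.2 CPM, lay near the lower cocaine library, at 236.0 CPM, so that much of the difference rested on the first saline library. DESeq2 called 0 of the 6 members tested in Exc_25. Synpr in Exc_25 was at 37.0 and 37.2 CPM in saline and 49.1 and 43.9 CPM in cocaine, a log2 change of 0.38 ± 0.19 (SE, edgeR adjusted p = 0.785). Both saline values of Synpr at 15 d lay below the cocaine values of 48 h, 39.4 and 56.4 CPM, and above the saline values of 48 h. In the same 15 d libraries Synpr was at 69.1 to 107.7 CPM in microglia and 17.3 to 34.5 CPM in endothelial cells, against 4.94 to 15.2 and 1.11 to 6.33 CPM at 48 h, and the part of such background in the level of Exc_25 was not tested. Nov, Rab3b, Nfib and Slc24a2 in Exc_25 had log2 changes between -0.15 and 0.10.

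The second saline library of 15 d also stood with the cocaine libraries for Hpcal1 in other cells. In inhibitory neurons Hpcal1 was at 14.7 CPM in the first saline library, at 54.7 CPM in the second, and at 55.0 and 55.1 CPM in the cocaine libraries. In microglia it was at 4.61, 56.4, 51.9 and 53.8 CPM in the same order. No label sets this library apart from its group.

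The change from maintenance to 15 d in the cocaine effect was tested as an interaction over all excitatory neurons. It was called for 0 of 7 members by edgeR and by DESeq2, beside 0% of genes (996 genes at an unadjusted p below 0.05, 9 called by DESeq2). Rab3b had the largest difference of effects, with a log2 value of -0.74 ± 0.32 (SE, edgeR adjusted p = 0.649), and Nfib followed with -0.35 ± 0.15 (SE, edgeR adjusted p = 0.649). These were the 2 members with an unadjusted p below 0.05. At the equal mix of clusters the Rab3b value was -0.21 ± 0.28 (SE), and it was -0.28 without the second and -1.09 without the first cocaine library of maintenance. The Nfib value was -0.19 at the equal mix and -0.23 without the second saline library of maintenance.

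**Figure D3:**
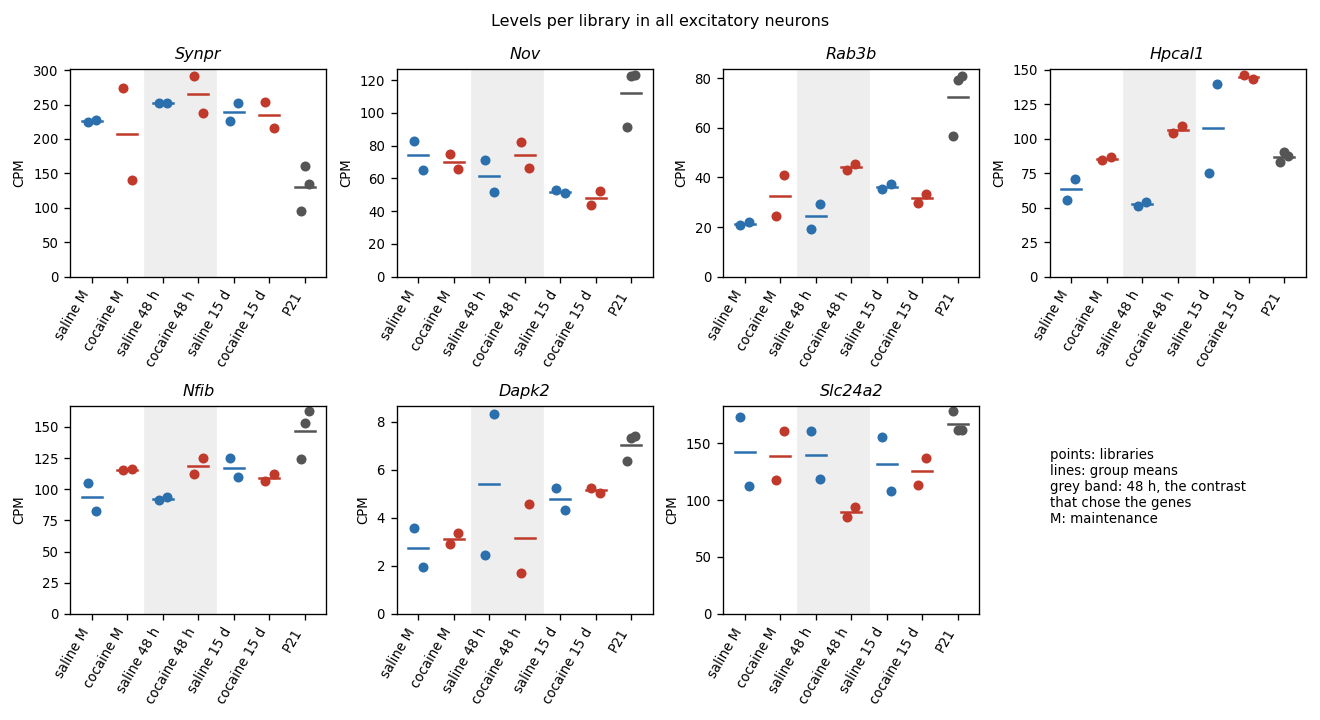
Levels in CPM (vertical axis) of each member in all excitatory neurons by group (horizontal axis), with a point for every library and a line at the group mean. For Hpcal1 the second saline library of 15 d (139.7 CPM) lies beside the cocaine libraries (146.0 and 143.3 CPM), and for Synpr the 3 P21 libraries lie below all adult libraries except the second cocaine library of maintenance (140.5 CPM).

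Between P21 and the adult cortex several members differed, with Nov, Rab3b and Dapk2 higher at P21 and Synpr lower. The adult side was the 4 saline libraries of maintenance and 15 d, since those of 48 h took part in the choice. edgeR called 4 of 7 members, beside 15.3% of 13000 genes, and DESeq2 called 4. The P21 libraries had medians of 7285 to 11340 UMIs per excitatory neuron and 3.05% to 3.67% mitochondrial UMIs, against 13270 to 14830 and 2.17% to 2.52% in these adult libraries. Age, sequencing depth and library preparation cannot be told apart in this design, and P21 libraries 2 and 3 differed less from each other than from library 1 (median chi-square per gene 0.746, against 4.24 and 4.71).

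Rab3b had the largest of these changes. It was at 56.6, 79.3 and 80.7 CPM at P21 and at 20.8, 21.9, 35.2 and 37.4 CPM in adult saline, a log2 change of 1.27 ± 0.21 (SE, edgeR adjusted p = 0.00289). Nov was at 91.1, 122.2 and 122.9 CPM at P21 and between 50.8 and 82.6 CPM in adult saline, a log2 change of 0.82 ± 0.18 (SE, edgeR adjusted p = 0.00903). Neither gene overlapped between ages. Synpr was at 94.8, 160.9 and 134.3 CPM at P21 and between 224.0 and 252.8 CPM in adult saline, a log2 change of -0.87 ± 0.15 (SE, edgeR adjusted p = 0.00277).

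Dapk2, at 6.36, 7.32 and 7.41 CPM at P21 and 1.93 to 5.23 CPM in adult saline, had a log2 change of 0.79 ± 0.24 (SE, edgeR adjusted p = 0.0291). Nfib, at 124.2 to 162.8 CPM against 82.6 to 125.1 CPM, passed the adjusted p (0.0232, edgeR) with a log2 change of 0.45 ± 0.13 (SE) below the 1.5-fold limit. Hpcal1 had a log2 change of -0.01 ± 0.28 (SE) and Slc24a2 of 0.27 ± 0.15 (SE), with edgeR adjusted p of 0.986 and 0.200. At an equal mix of clusters (289 cells a library) Synpr was no longer called, at -0.39 ± 0.13 (SE), and Nfib was at -0.06 ± 0.14 (SE), while Nov, Rab3b and Dapk2 were still called at 0.84, 0.90 and 1.48. With P21 libraries 2 and 3 summed as 1 library, Dapk2 was no longer called (edgeR adjusted p = 0.0742), nor was it without the first saline library of maintenance (0.0613) or without P21 library 2 (0.0801) or 3 (0.086). Against all 6 saline libraries Dapk2 had a log2 change of 0.57 (edgeR adjusted p = 0.181) and was not called. With P21 libraries 2 and 3 summed, Synpr, Nov and Rab3b were called at -0.97, 0.75 and 1.19 (edgeR adjusted p = 0.0054, 0.0348 and 0.0131), and the adjusted p of Nfib was 0.0919.

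Within the clusters, Nov was called higher at P21 in 15 of 24 clusters tested. A gene that passed the filter on low counts in a cluster only through one age had to differ there, so the counts over clusters describe the tests made and support nothing. edgeR called 26 of 129 tests of a member (20.2%, beside 7.36% of all pairs of a gene and a cluster), and DESeq2 called 17. In Exc_22, Nov was at 31.5 to 56.7 CPM in P21 libraries and at 3.32 to 8.20 CPM in the adult saline libraries with at least 10 cells, which held 1, 11 and 7 UMIs of it, and it passed the filter there through the P21 libraries alone. Rab3b was called higher in Exc_15, Exc_22 and Exc_25 of 13 clusters tested. In Exc_15 and Exc_22 it too passed through P21 alone, with 14 and 6 UMIs and with 2, 9 and 4 UMIs in the adult saline libraries. In microglia of P21 libraries Nov was at 48.7 to 59.5 CPM and Rab3b at 64.2 to 127.7 CPM, against 6.64 to 27.6 and 3.32 to 23.03 CPM in the adult saline libraries of maintenance and 15 d, and the part of such background in the cluster values was not tested.

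Hpcal1 and Synpr were called between the ages in a few clusters. Hpcal1 was called higher at P21 in Exc_10, Exc_20 and Exc_23 of 25 clusters. In Exc_10 its adult saline libraries were at 12.37 to 27.94 CPM, and Hpcal1 passed the filter there through P21 alone. In Exc_20 it was at 71.8 to 103.6 CPM at P21 against 6.54 and 10.3 CPM in saline of 15 d, which rest on 1 UMI in 11 cells and 6 UMIs in 53 cells, and it passed the filter there through P21 alone. Synpr was called lower in Exc_1, Exc_9 and Exc_14 of 20 clusters. Dapk2 was tested in 1 cluster, Exc_10, and called higher there, at log2 1.38 ± 0.37 (SE). It was at 38.95 to 76.15 CPM at P21 against 9.28 to 26.94 CPM in adult saline. Dapk2 passed the filter there through P21 alone, so that this call supports nothing. Slc24a2 was called lower in Exc_3 alone of 21, and Nfib was called in none of 25.

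In Exc_25, edgeR called Nov and Rab3b higher at P21 among 6 members tested, beside 16.9% of genes. Nov was at 89.7, 113.1 and 138.0 CPM at P21 and at 113.4, 47.8, 43.4 and 48.7 CPM in adult saline, a log2 change of 0.96 ± 0.24 (SE, edgeR adjusted p = 0.0104). The ages overlapped for Nov, since the first saline library of maintenance lay above 2 of the 3 P21 libraries. Rab3b was at 45.1, 35.6 and 57.6 CPM at P21 and at 23.5 to 31.5 CPM in adult saline, a log2 change of 0.73 ± 0.21 (SE, edgeR adjusted p = 0.0156). Without the first saline library of 15 d neither was called by edgeR (adjusted p = 0.063 for Nov and 0.118 for Rab3b), and Rab3b was not called without P21 library 3 (0.104). DESeq2 called Nov and not Rab3b there (adjusted p = 0.0626 for Rab3b). The 48 h cocaine values of Rab3b in this cluster, 42.0 and 52.8 CPM, lay within its P21 range, but these values chose the gene. Its maintenance cocaine libraries were at 27.25 and 46.36 CPM. For Synpr, Nov and Nfib the P21 and 48 h cocaine ranges of Exc_25 did not overlap, and nothing is read from the likeness of Rab3b. Hpcal1, at 122.5 to 143.3 CPM at P21, had a log2 change of -0.32 ± 0.20 (SE, edgeR adjusted p = 0.260).

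**Figure D4:**
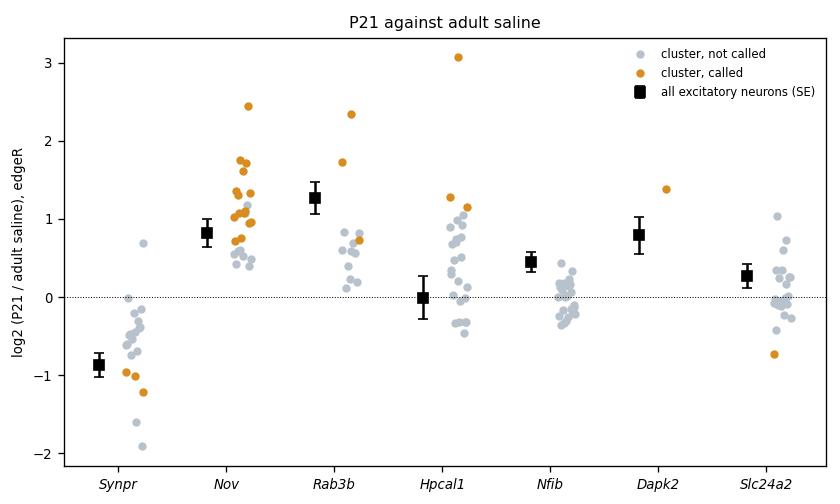
Log2 change of P21 over adult saline from edgeR (vertical axis) for each member (horizontal axis), with squares for all excitatory neurons (bars, SE) and points for each tested cluster, orange where called. The orange points number 15 for Nov, 3 each for Rab3b, Hpcal1 and Synpr, and 1 each for Dapk2 and Slc24a2, and clusters in which a gene passed the filter through one age alone are among the points.

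The members had different places among the clusters in adult saline libraries of maintenance and 15 d. In Exc_15, Exc_18, Exc_20 and Exc_26 only the 2 saline libraries of 15 d had at least 10 cells, so that the orders mix sets of libraries. The clusters were made from the same cells, so the order of levels is a description. Synpr was highest in Exc_8 (654.2 ± 28.6 CPM, SD, n = 3), Exc_17 and Exc_16, and lowest in Exc_22 (3.12 CPM). Exc_25 was 19 of 26 for Synpr, at 20.6 ± 19.3 CPM (SD, n = 4). Only 1 of the 25 pairs of neighbours in the order of Synpr was apart by more than the larger of their SDs.

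Hpcal1 was highest in Exc_7 (393.5 ± 94.1 CPM, SD, n = 3), followed by Exc_14 (273.9 ± 72.5, n = 4), Exc_15 and Exc_25 (148.3 ± 49.5 CPM, SD, n = 4). Exc_7 and Exc_14, and Exc_14 and Exc_15, were each apart by more than the larger SD, but Exc_15 and Exc_25 were not. In the 15 d saline libraries alone Exc_15 was at 176.7 CPM and Exc_25 at 176.0 CPM. Slc24a2 was highest in Exc_13 (451.9 ± 80.3 CPM, SD, n = 4) and Exc_18, and was at 218.3 ± 27.1 CPM (SD, n = 4) in Exc_25, 7 of 26. Its lowest clusters, Exc_6, Exc_17 and Exc_16, were among the highest for Synpr.

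Rab3b had its highest means in Exc_20 (169.2 ± 93.8 CPM, SD, n = 2), Exc_19, Exc_7 and Exc_14, with no neighbours among them apart by more than the SD, and was at 27.04 ± 3.58 CPM (SD, n = 4) in Exc_25. In the 15 d saline libraries alone Exc_19 was at 187.1 CPM, above Exc_20. Nfib was highest in Exc_26 (335.5 ± 9.7 CPM, SD, n = 2), Exc_20, Exc_18 and Exc_19 and lowest in Exc_11 (40.0 CPM), with Exc_25 at 99.3 ± 21.04 CPM (SD, n = 4). Nov was highest in Exc_4 (173.8 ± 9.9 CPM, SD, n = 4), apart from Exc_5 (139.6 CPM) by more than the SD, and was at 63.3 ± 33.5 CPM (SD, n = 4) in Exc_25. Dapk2 reached 16.8 ± 8.2 CPM (SD, n = 4) in Exc_10 and its mean was below 20 CPM in every cluster.

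**Figure D5:**
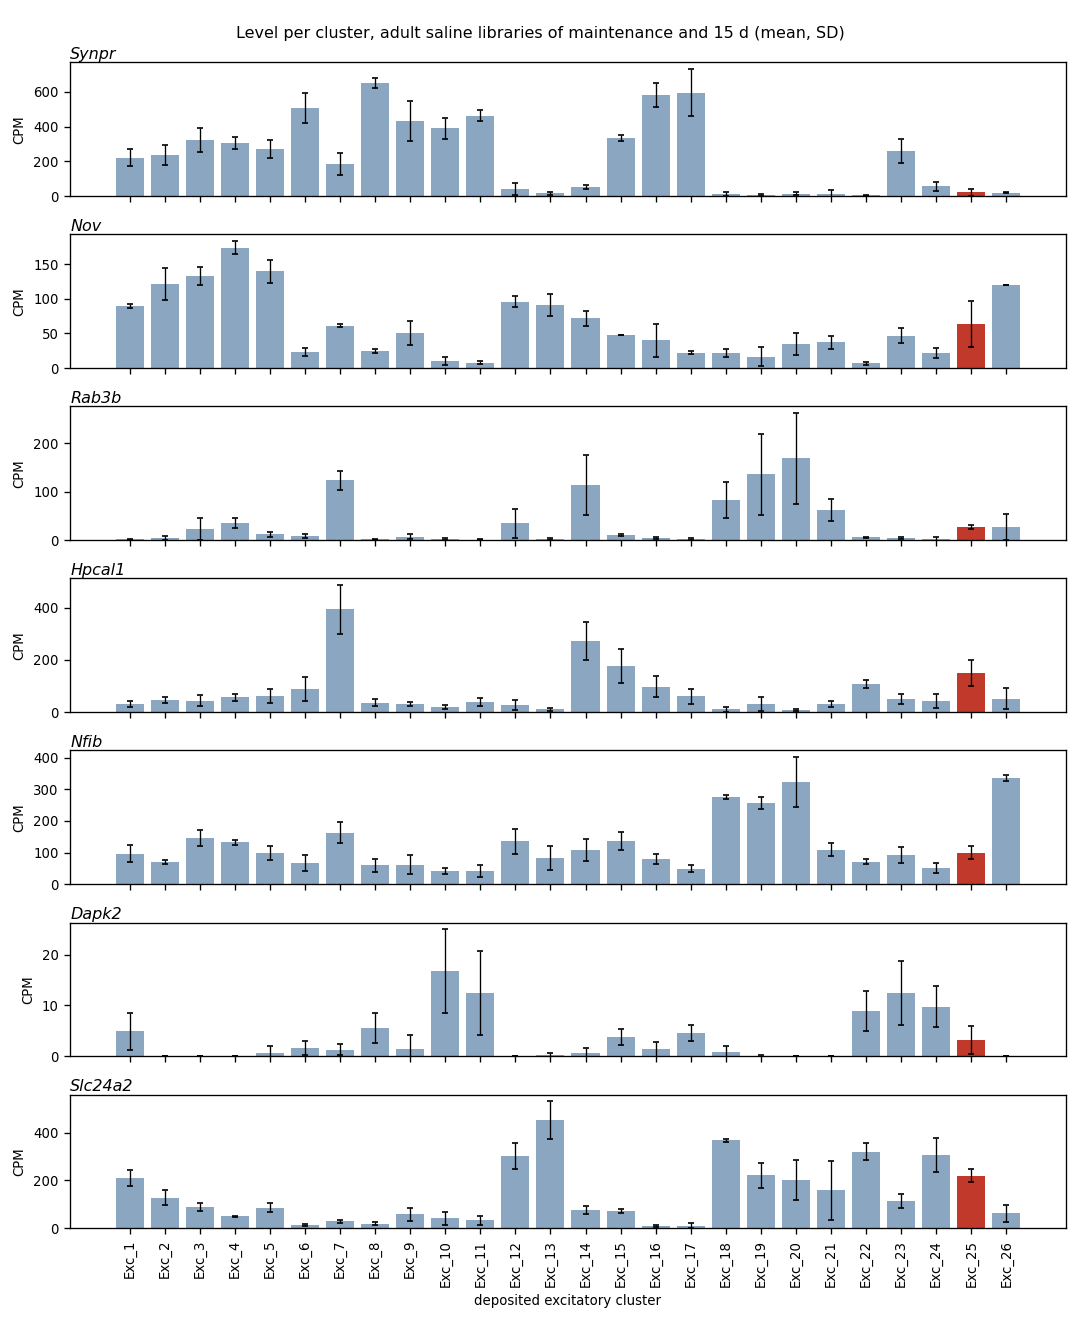
Mean level in CPM (vertical axes, one per member) in each deposited excitatory cluster (horizontal axis) over the adult saline libraries of maintenance and 15 d, with bars for the SD and Exc_25 in red. Synpr is high in Exc_8, Exc_16 and Exc_17 and low in Exc_25 (20.6 CPM), whereas Hpcal1 peaks in Exc_7 (393.5 CPM) and Slc24a2 in Exc_13 (451.9 CPM).

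Across the 26 clusters, the log2 levels of Rab3b and Nfib rose and fell together (Pearson r = 0.82), and those of Synpr and Slc24a2 ran against each other (r = -0.77). The points share libraries and depth, so no test is given. Genes among those with the most similar profile, among 6039 genes averaging at least 20 CPM, were Car4 (r = 0.92) and Arpp21 (r = 0.91) for Synpr, Rapgef2 (0.88) for Nov, and Chd3 (0.83) and Lsm6 (0.82) for Rab3b. They were Atp6v1b2 (0.83) and Cnr1 (0.80) for Hpcal1, Chd3 (0.93) and Spr (0.86) for Nfib, Rorb (0.84) for Dapk2, and Cadm4 (0.85) and Phyhipl (0.83) for Slc24a2. Chd3, a chromatin remodeller, was thus the closest gene for both Rab3b and Nfib.

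In other cell classes of the adult libraries, Synpr was higher in inhibitory neurons (542.0 to 1299 CPM, median 779.1) than in excitatory neurons (140.5 to 292.0 CPM). The same held for Rab3b, with 137.1 to 469.3 CPM in inhibitory and 19.3 to 45.4 CPM in excitatory neurons, and for Nfib, with 223.3 to 582.5 against 82.6 to 125.1 CPM. Hpcal1 ran the other way, at 7.42 to 55.1 CPM in inhibitory and 51.3 to 146.0 CPM in excitatory neurons, and endothelial cells held 67.2 to 137.4 CPM. Dapk2 was at 11.7 to 35.3 CPM in mature oligodendrocytes, above every excitatory library (1.72 to 8.33 CPM), and Slc24a2 at 159.9 to 253.9 CPM there.

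Among 37 listed relatives of the members, 34 were tested in all excitatory neurons. By edgeR none was called between cocaine and saline at maintenance or 15 d (3 and 1 at an unadjusted p below 0.05, 0 and 1 called by DESeq2). Their median log2 change was 0.046 at maintenance and -0.069 at 15 d, beside 0.006 and -0.013 over all genes. The relatives with the most UMIs of each family are given for how well they were measured, and their levels are not compared with one another. They were Syp (399.2 ± 60.9 CPM, SD, n = 12) and Syngr3 (240.7 ± 18.1) of the synaptophysin family, and Rab3c (187.4 ± 16.9) of the Rab3 family. Vsnl1 (2116 ± 246) and Ncald (1226 ± 98.9) stood for the calcium sensors. Rab3a, another vesicle GTPase, ranged from 1140 to 2611 CPM over the 12 adult libraries. Nfix (291.6 ± 23.6 CPM) and Nfic (33.7 ± 3.29) of the NFI family, Dapk1 (58.9 ± 6.29) and Dapk3 (1.89 ± 0.418), Slc8a2 (83.6 ± 8.11) and Slc24a3 (42.5 ± 9.28) of the exchangers, and Cyr61 (8.22 ± 5.40) and Wisp1 (4.70 ± 1.06) of the CCN family (all SD, n = 12) completed the list.

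At P21, edgeR called 6 of the 34 relatives (17.6%, beside 15.3% of genes), 4 higher and 2 lower, and DESeq2 called 5. An unadjusted p below 0.05 was found for 21 of them, and for 5467 of 13000 genes. Nfia, another NFI factor, was higher by log2 1.38 ± 0.25 (SE, edgeR adjusted p = 0.00528), and Ctgf, a CCN protein related to Nov, by 2.22 ± 0.31 (SE, edgeR adjusted p = 0.000958) from an adult mean of 0.772 CPM. The calcium sensors Hpca and Vsnl1 were lower by log2 -0.79 ± 0.11 and -0.73 ± 0.12 (SE, edgeR adjusted p = 0.00087 and 0.00234). Hpcal1 was not called, and its difference from these relatives was not tested. Slc24a5 and Slc8a3, both exchangers, were higher by log2 0.61 ± 0.20 and 0.60 ± 0.20 (SE, edgeR adjusted p = 0.049 and 0.0482).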

How the data were processed

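The authors prepared droplet libraries (10x Genomics) from the PFC and aligned reads to mm9 with Cell Ranger, and the submitters' processing notes name Seurat 2.1.0. Deposited values are raw UMI counts of 26145 genes for each barcode, and a table made by the authors gives class, cluster and the fraction of mitochondrial UMIs of each of 35360 retained cells. For the adult cells the authors had left out those with very many genes and others they judged to be double droplets. Their methods state that double droplets were taken out of the P21 data too. No doublet caller was run here. The gene list, the members and the tests were chosen with earlier results of these data known.

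Here UMIs were summed per library over excitatory cells and over clusters with at least 10 cells, leaving out 13 mitochondrial and 140 ribosomal protein genes, and tested with edgeR 4.0.16 in R 4.3.3 (TMM, filterByExpr, robust glmQLFit and glmQLFTest), with Benjamini-Hochberg adjustment over all genes of the fit. One fit held the 12 adult libraries with a mean for each of 6 groups, another held P21 and 4 saline libraries. Genes were called at an adjusted p below 0.05 and over 1.5-fold. Since the labels do not say how the pools of mice were formed, p-values of the cocaine contrasts measure the spread between pools. In the P21 fit the P21 libraries count as separate replicates although some may share mice. Its p-values may therefore in part measure the spread within a pool. Alternatives were DESeq2 1.42.0, RLE scaling, no filter, an equal mix of clusters, other sets of libraries, and leaving out each library. Named are the members, the 2 relatives of each family with the most UMIs with any that was called, and the 2 genes with the closest profile, of which some are not reported here. Fits were also run on simulated data with 200 genes changed, and the outcome is not reported here. No paired analysis was possible because the replicate numbers do not link libraries of different groups.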

Additional observations from a re-analysis of the deposited data

Results flagged for a closer look

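Synpr in all excitatory neurons of the 4 adult saline libraries of maintenance and 15 d was flagged because 1 library, the second of 15 d (252.8 CPM), lay far from the other 3 (224.0, 225.4 and 227.7 CPM), with a gap of 0.87 of the whole range. Chance flags about 1 in 20 groups by this measure, and 7 members were examined.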

How the results depend on the processing

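The counts over all genes moved most with settings. At maintenance, where edgeR called 0 genes, DESeq2 called 2 and 40 were called without a filter, and leaving out 1 library gave 0 to 1. At 15 d, 94 genes became 163 with DESeq2, 384 without a filter, 0 with only the 8 libraries of maintenance and 15 d, and 0 to 387 without 1 library. For the interaction, 0 genes became 9 with DESeq2, 249 without a filter and 0 to 145 without 1 library. For P21, 1986 became 1238 at an equal mix of clusters and 1548 to 2460 without 1 library. Members called stayed at 0 at maintenance and in the interaction under every setting run, and at 15 d ranged from 0 to 1 without 1 library. At P21, members called ranged from 3 to 4 without 1 library. In clusters, tests of members called ranged from 0 to 1 at maintenance, from 0 to 13 at 15 d (0 with DESeq2) and from 17 to 32 at P21 (17 with DESeq2) without 1 library.

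Signs that turned belonged to members that were not called. At an equal mix of clusters Synpr was at 0.10 at maintenance and -0.051 in the interaction, Nov at -0.013 and Dapk2 at 0.41 in the interaction, and at P21 Hpcal1 was at 0.37, Nfib at -0.055 and Slc24a2 at -0.074. Without 1 library, log2 changes at maintenance ran from -0.68 to 0.23 for Synpr, -0.21 to 0.027 for Nov, -0.16 to 0.62 for Dapk2 and -0.30 to 0.24 for Slc24a2. At 15 d they ran from -0.086 to 0.12 for Synpr, -0.21 to 0.074 for Nov, -0.14 to 0.036 for Nfib and -0.26 to 0.25 for Slc24a2. In the interaction they ran from -0.21 to 0.70 for Synpr, -0.13 to 0.16 for Nov, -0.30 to 0.60 for Hpcal1, -0.48 to 0.30 for Dapk2 and -0.26 to 0.28 for Slc24a2, and at P21 from -0.17 to 0.32 for Hpcal1. The untested 48 h ratios of all excitatory neurons ran from -0.082 to 0.21 for Synpr and -1.65 to 0.35 for Dapk2. Against all 6 saline libraries Hpcal1 at P21 was at 0.17. With the total of all genes, mitochondrial and ribosomal included, Synpr in Exc_8 was at 603 CPM, Nov in Exc_4 at 157.2 CPM and Nfib in Exc_26 at 301.2 CPM. The cause of these shifts was not tested. Precision is limited by 2 libraries a group and by few UMIs of Dapk2.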
